A study of Mus musculus with 4 samples.

Results

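The serine and one-carbon genes described here are the 9 genes for serine synthesis and the folate cycle chosen by name for the contrast of the cytosolic with the mitochondrial arm: Phgdh, Psat1, Psph, Shmt1, Shmt2, Mthfd1, Mthfd2, Mthfd1l and Slc19a1. Each matched exactly 1 of the 20555 rows of the deposited expression table by gene symbol. The series holds 4 RNA-seq libraries of bulk mammary tumours from mice, 2 in each of 2 groups. Control-PyMT carries the PyMT genotype, in which the middle T antigen of polyoma virus drives mammary tumours. MYC-PyMT carries the genotype S100a8-creRosa26-LSL-MYCPyMT, so PyMT is shared by both groups. S100a8, a gene used strongly by neutrophils, drives the Cre recombinase in MYC-PyMT, and the MYC allele sits at Rosa26 after a stop cassette (LSL) that is lost in cells with Cre. The labels give no age or strain, do not say whether controls carry Cre or the MYC allele, and do not tie each library to a mouse of its own. The p-values therefore measure only the spread between the libraries, and that spread may be technical.

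Cells can make serine from the glycolytic intermediate 3-phosphoglycerate in 3 steps, carried out in turn by the products of Phgdh, Psat1 and Psph. Serine then gives up a carbon to tetrahydrofolate, a reaction run in the cytosol by SHMT1 and in the mitochondrion by SHMT2. The folate-bound carbon is carried through parallel sets of reactions, in the cytosol by the trifunctional MTHFD1 and in the mitochondrion by MTHFD2 and then MTHFD1L, and is used for purines, thymidylate and methionine. Slc19a1 encodes the reduced folate carrier of the plasma membrane. Dividing cells draw heavily on this network, and MTHFD2 is known for being high in embryonic and tumour cells and low in most adult tissues.

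Values are scaled counts, which are read counts that the authors divided by 1 size factor per library. Reads recovered from them totalled 31783846 to 34190913 per library, and the 9 genes had between 249 reads (Mthfd1l, Control-PyMT replicate 2) and 21768 reads (Psat1, MYC-PyMT replicate 1). Epcam and Krt8, defining genes of mammary epithelium, were among the abundant genes in every library, and the 6 epithelial markers summed to 106720 and 96984 scaled counts in Control-PyMT and to 84307 and 94540.0 in MYC-PyMT. These sums hide opposite changes of Krt14, which rose, and Cdh1, which fell. The mouse Myc gene gave 1832 and 2820 scaled counts in the Control-PyMT pair and 3215 and 2815 in the MYC-PyMT pair, overlapping ranges with a log2 change of 0.40 (SE 0.23, limma adjusted p = 0.172). Without Control-PyMT replicate 2 it passed the test (limma adjusted p = 0.0452). Whether the MYC transgene is human or mouse is not in the labels, and these reads need not count it.

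All 9 serine and one-carbon genes rose in MYC-PyMT tumours, and for each of them both MYC-PyMT libraries lay above both Control-PyMT libraries. The rises ran from 3.02-fold for Mthfd1 to 10.4-fold for Mthfd1l as ratios of group means. The test was limma on log2(scaled counts + 1) with Benjamini-Hochberg adjustment over all 16725 genes tested, at a threshold of 0.05. By that test 47.9% of all genes tested changed, 23.3% higher and 24.6% lower in MYC-PyMT. In 37.0% of them both MYC-PyMT libraries lay above both Control-PyMT libraries, and in 38.7% below. The median log2 change of the 9 genes was 2.56, beside -0.02 over all genes tested. A log2 change of at least 2.5 was reached by 5 of the 9 genes and by 236 of the 16725 genes tested (1.41%). The 9 genes were chosen with earlier results of these data known, which limits such comparisons with all genes. In bulk tumours, more cells that use a gene and more RNA per cell cannot be told apart.

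**Figure D1:**
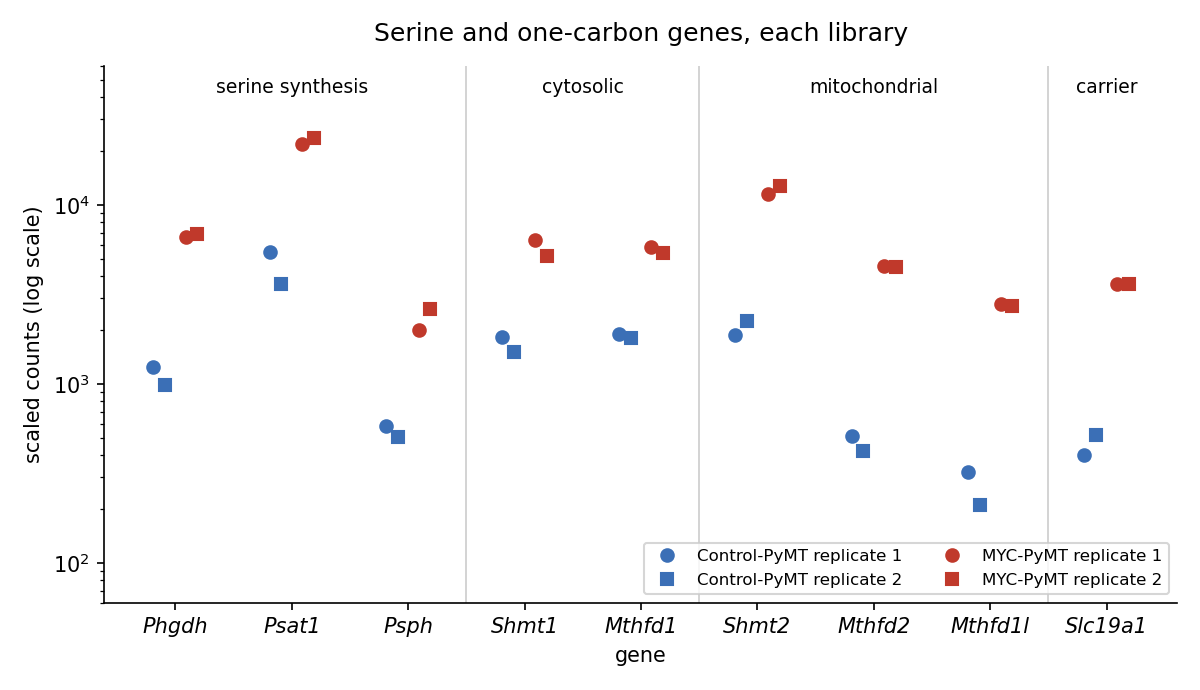
Scaled counts (vertical axis, log scale) of the 9 genes in each library, grouped as serine synthesis, cytosolic enzymes, mitochondrial enzymes and folate carrier; blue marks Control-PyMT, red MYC-PyMT, circles replicate 1 and squares replicate 2. The red points of every gene lie above its blue points, and the gap is widest for Mthfd1l and Mthfd2.

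Phgdh encodes 3-phosphoglycerate dehydrogenase, the entry enzyme of serine synthesis (ENSMUSG00000053398.11, chromosome 3, 98313170 to 98339990, minus strand, GRCm38). Replicates 1 and 2 of Control-PyMT stood at 1247 and 986 scaled counts, those of MYC-PyMT at 6606 and 6894, and values below keep that order. The Control-PyMT libraries differed 1.26-fold and the MYC-PyMT libraries 1.04-fold. The groups lay far apart, with a log2 change of 2.60 (SE 0.19, limma adjusted p = 1.36e-05). Of the 50-base stretches of its longest coding transcript, 63.1% also occur in transcripts of 23 other annotated genes, of which the processed pseudogene Gm7901 shares most (50.6%). Gm7901 itself was listed at 34.6 and 35.7 scaled counts in the Control-PyMT pair and 216 and 185 in the MYC-PyMT pair. How the authors assigned reads that match several places is not stated in the labels, so the level of Phgdh is uncertain.

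Psat1, the phosphoserine aminotransferase (ENSMUSG00000024640.9, chromosome 19, 15904678 to 15947337, minus strand), had 5448 and 3610 scaled counts in the Control-PyMT pair and 21907 and 23644 in the MYC-PyMT pair. The Control-PyMT libraries differed 1.51-fold, while the lowest MYC-PyMT value was still far above the higher of them. The fitted log2 change came to 2.36 (SE 0.23, limma adjusted p = 4.96e-05). Psph, the phosphatase that releases free serine (ENSMUSG00000029446.14, chromosome 5, 129765558 to 129787449, minus strand), had 580 and 502 scaled counts in the Control-PyMT pair and 2008 and 2620 in the MYC-PyMT pair. Here the MYC-PyMT libraries were the ones that differed, 1.30-fold, for a log2 change of 2.09 (SE 0.21, limma adjusted p = 6.75e-05). Psph overlaps Cct6a, a chaperonin subunit gene on the opposite strand, over 452 bases, and 23.9% of its 50-base stretches occur in Cct6a transcripts. Cct6a rose from 10085 to 24193 scaled counts on average (log2 1.28, limma adjusted p = 0.00144). The kit keeps the strand but the strand setting of the counting is not stated in the labels, so Psph is uncertain too.

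The cytosolic pair rose least. Shmt1, the cytosolic serine hydroxymethyltransferase (ENSMUSG00000020534.14, chromosome 11, 60788104 to 60811718, minus strand), had 1826 and 1508 scaled counts in the Control-PyMT pair and 6331 and 5154 in the MYC-PyMT pair. That is a log2 change of 1.78 (SE 0.20, limma adjusted p = 0.000104), with similar spread in both groups. Mthfd1 (ENSMUSG00000021048.6, chromosome 12, 76255298 to 76319803, plus strand) had 1909 and 1805 scaled counts in the Control-PyMT pair and 5826 and 5372 in the MYC-PyMT pair. Its log2 change of 1.59 (SE 0.18, limma adjusted p = 0.000108) was the smallest of the 9, and 94.2% of all genes tested had a smaller one.

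The mitochondrial enzymes among the 9 had larger changes. Shmt2 (ENSMUSG00000025403.4, chromosome 10, 127517123 to 127522444, minus strand) had 1883 and 2241 scaled counts in the Control-PyMT pair and 11458 and 12749 in the MYC-PyMT pair, a log2 change of 2.56 (SE 0.19, limma adjusted p = 1.34e-05). Mthfd2, the mitochondrial dehydrogenase and cyclohydrolase (ENSMUSG00000005667.8, chromosome 6, 83305691 to 83325908, minus strand), had 514 and 422 scaled counts in the Control-PyMT pair and 4568 and 4495 in the MYC-PyMT pair. The MYC-PyMT libraries differed by a factor of 1.02 only, for a log2 change of 3.28 (SE 0.19, limma adjusted p = 4.79e-06). Mthfd1l, the mitochondrial formyltetrahydrofolate synthetase that releases formate (ENSMUSG00000040675.17, chromosome 10, 3973118 to 4167081, plus strand), had 320 and 211 scaled counts in the Control-PyMT pair and 2792 and 2715 in the MYC-PyMT pair. With a log2 change of 3.40 (SE 0.24, limma adjusted p = 1.08e-05) it was the largest of the 9 and stood in place 94 among all genes tested, ranked from the largest rise. Mthfd1, Mthfd2, Mthfd1l and Slc19a1 shared no 50-base stretch with another gene's transcripts.

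Slc19a1 (ENSMUSG00000001436.15, chromosome 10, 77032241 to 77061002, plus strand) had 402 and 518 scaled counts in the Control-PyMT pair and 3621 and 3612 in the MYC-PyMT pair. The MYC-PyMT libraries were nearly equal, for a log2 change of 2.98 (SE 0.20, limma adjusted p = 9.33e-06). Within a group, the higher library of any of the 9 genes was at most 1.51 times the lower in Control-PyMT and at most 1.30 times in MYC-PyMT. No alternative processing ended the call of any of the 9. The highest adjusted p was 0.0188, for Psph without Control-PyMT replicate 2, where the lone Control-PyMT library is assumed to vary like the MYC-PyMT pair.

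Divided by the length of the longest coding transcript, levels can be compared between genes. In Control-PyMT, Psat1 stood highest at 1731 ± 497 scaled counts per kilobase (SD, n = 2), followed by Shmt2 at 901 ± 111. Phgdh at 589.7 ± 97.3, Shmt1 at 583 ± 78.9 and Mthfd1 at 573 ± 22.7 per kilobase followed and did not differ beyond their spread. Psph at 312 ± 31.8, Mthfd2 at 225 ± 31.3, Slc19a1 at 161 ± 28.6 and Mthfd1l at 72.1 ± 20.8 per kilobase were the low end. In MYC-PyMT the order began the same way, with Psat1 at 8703 ± 469, Shmt2 at 5288 ± 399 and Phgdh at 3566 ± 108 per kilobase. Mthfd2 came next at 2173 ± 24.8 per kilobase, within the spread of Shmt1 at 2009 ± 291 and above Mthfd1 at 1727 ± 99.1. Psph at 1335 ± 249.8 and Slc19a1 at 1263 ± 2.14 per kilobase were not separated beyond their spread, and Mthfd1l at 747 ± 14.6 remained the lowest of the 9. So Mthfd2 lay under both cytosolic enzymes per length in Control-PyMT and at their level or above in MYC-PyMT. This order rests on the longest transcript: the values change with the transcript chosen.

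The rule for the set contrasts the cytosolic with the mitochondrial arm, and ratios of counterpart genes inside a library make that contrast without any scaling between libraries. Shmt2 over Shmt1 was 1.03 and 1.49 in the Control-PyMT pair and 1.81 and 2.47 in the MYC-PyMT pair. The groups did not overlap. On the log2 scale the difference was 0.77, against SDs of 0.37 in Control-PyMT and 0.32 in MYC-PyMT, and it was 0.51 without Control-PyMT replicate 1 and 1.04 without Control-PyMT replicate 2. Mthfd1l over Mthfd1 was 0.168 and 0.117 in the Control-PyMT pair and 0.479 and 0.506 in the MYC-PyMT pair, a log2 difference of 1.81 against SDs of 0.36 and 0.05. Mthfd2 over Mthfd1 went from 0.269 and 0.234 in Control-PyMT to 0.784 and 0.837 in MYC-PyMT, a log2 difference of 1.69 against SDs of 0.14 and 0.07. Mthfd2 and Mthfd1l thus rose 3.23 and 3.51 times more than Mthfd1 within libraries, and Shmt2 rose 1.71 times more than Shmt1. This covers the named genes only, and the mitochondrial Mthfd2l, described next, had a log2 change of 0.07.

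Mthfd2l encodes a second mitochondrial dehydrogenase and cyclohydrolase, found in adult tissues. It had 693 and 532 scaled counts in the Control-PyMT pair and 618 and 658 in the MYC-PyMT pair, overlapping ranges with a log2 change of 0.07 (SE 0.22, limma adjusted p = 0.817), or -0.04 under upper-quartile scaling, which moves the median of all genes by -0.11. Mthfd2 over Mthfd2l was 0.742 and 0.794 in the Control-PyMT pair and 7.39 and 6.83 in the MYC-PyMT pair, a log2 difference of 3.21. Each of the 4 ratios separated the groups, and each gave the smallest p that a two-sided exact permutation test of 2 against 2 can give, 0.333 (also 0.333 after Benjamini-Hochberg adjustment over the 4), so none could pass a threshold of 0.05.

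**Figure D2:**
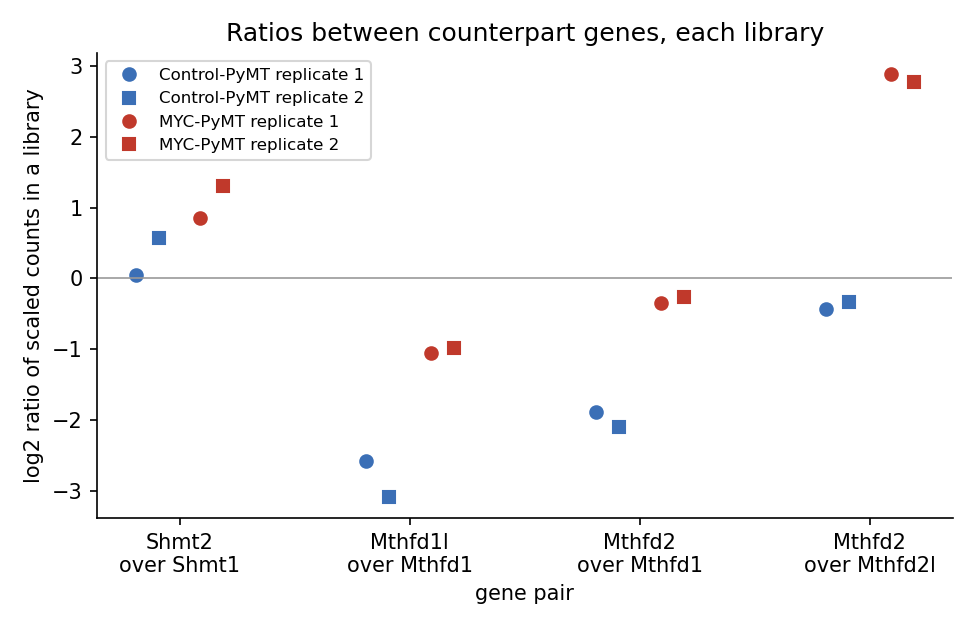
Log2 ratio of the scaled counts of gene pairs within each library (vertical axis), with blue for Control-PyMT, red for MYC-PyMT, circles for replicate 1 and squares for replicate 2; the line at 0 marks equal counts. All 4 ratios are higher in both MYC-PyMT libraries, by 0.77 for Shmt2 over Shmt1 up to 3.21 for Mthfd2 over Mthfd2l.

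Since the 9 genes rose together, the sequence before their start sites was examined. RefSeq start sites on GRCm38.p6 gave 11 windows for the 9 genes, each from 250 bases before to 50 bases after the start. None of the 11 windows held the canonical E-box CACGTG (a palindrome, present in 7.15% of the 32851 windows of all genes) or the amino acid response element core TGATGNAAN on either strand (3.95%). The CCAAT box, a common promoter element that was looked for only after these windows had been read, was found on either strand in 6 of the 11 windows, those of Phgdh, Psat1, Psph, Shmt1, Mthfd1 and Mthfd2, and in 37.4% of all windows. Shown here are the hydroxymethyltransferase pair of both arms, the genes with the largest rises and the most abundant gene, with annotated exon bases left out and each CCAAT match, read as ATTGG on the opposite strand, in capitals.
Shmt1, cytosolic, chr11:60811266-60811466, minus strand: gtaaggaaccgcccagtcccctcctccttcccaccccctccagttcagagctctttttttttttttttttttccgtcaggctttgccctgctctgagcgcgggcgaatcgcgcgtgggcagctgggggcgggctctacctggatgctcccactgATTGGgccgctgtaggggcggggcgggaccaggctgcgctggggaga
Shmt2, mitochondrial, chr10:127522445-127522694, minus strand: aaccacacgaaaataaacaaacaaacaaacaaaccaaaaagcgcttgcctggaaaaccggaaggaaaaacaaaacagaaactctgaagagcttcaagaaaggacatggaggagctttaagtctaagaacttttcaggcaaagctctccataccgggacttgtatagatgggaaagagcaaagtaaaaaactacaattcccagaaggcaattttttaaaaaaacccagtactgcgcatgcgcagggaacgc
Mthfd2, mitochondrial, chr6:83317607-83317854, minus strand: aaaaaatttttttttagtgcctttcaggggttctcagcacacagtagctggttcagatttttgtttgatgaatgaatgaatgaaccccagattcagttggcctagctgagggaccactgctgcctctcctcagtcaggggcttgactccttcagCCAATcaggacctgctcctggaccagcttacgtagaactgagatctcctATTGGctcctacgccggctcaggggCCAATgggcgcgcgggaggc
Mthfd1l, mitochondrial, chr10:3972825-3973074, plus strand: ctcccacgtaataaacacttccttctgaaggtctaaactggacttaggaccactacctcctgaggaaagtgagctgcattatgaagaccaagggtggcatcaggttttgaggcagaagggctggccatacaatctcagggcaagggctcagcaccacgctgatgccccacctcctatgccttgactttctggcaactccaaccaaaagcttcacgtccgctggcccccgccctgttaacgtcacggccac
Psat1, serine synthesis, chr19:15925060-15925309, minus strand: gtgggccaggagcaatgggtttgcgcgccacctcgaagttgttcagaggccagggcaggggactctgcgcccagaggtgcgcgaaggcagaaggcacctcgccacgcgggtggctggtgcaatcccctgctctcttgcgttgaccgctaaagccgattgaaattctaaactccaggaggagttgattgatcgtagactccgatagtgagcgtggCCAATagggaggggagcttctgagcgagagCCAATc
In the Mthfd2 stretch the matches begin 96, 47 and 22 bases before the start site, in that of Psat1 36 and 6 bases before it, and in that of Shmt1 47 bases before it, whereas the Shmt2 and Mthfd1l stretches held none. A match describes these letters only. The absence of the E-box and the response element says little, since both are rare among all windows and sequence outside the windows was not searched. The rises of genes with and without a CCAAT box overlapped, with log2 changes of 1.59 to 3.28 and of 2.56 to 3.40.

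Around the 9 genes, 77 of 83 listed genes of neighbouring pathways were in the table and 74 passed the level filter. Of these 74, 38 rose (51.4%) and 6 fell (8.11%), beside 23.3% and 24.6% of all genes tested, with a median log2 change of 0.66. These lists too were chosen with earlier results of these data known. Among 14 other folate cycle enzymes 7 rose, none fell and 7 did not pass. Aldh1l2, the mitochondrial formyltetrahydrofolate dehydrogenase, rose from 867 ± 62.1 to 3098 ± 272 scaled counts (SD, n = 2 each). Its cytosolic counterpart Aldh1l1 had 182 and 176 scaled counts in the Control-PyMT pair and 190.2 and 98.9 in the MYC-PyMT pair, overlapping ranges (log2 -0.38, SE 0.34, limma adjusted p = 0.388). Of the folate users in nucleotide synthesis, Gart, a trifunctional enzyme of purine synthesis, rose from 1583 ± 164 to 5792 ± 603, and Tyms, thymidylate synthase, from 1450.3 ± 332 to 3149 ± 152. Fpgs, which adds the glutamate tail that keeps folate in the cell, rose from 1281 ± 360.4 to 3433 ± 146, and Sardh, sarcosine dehydrogenase, from 1264 ± 400.0 to 4121 ± 965.

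**Figure D3:**
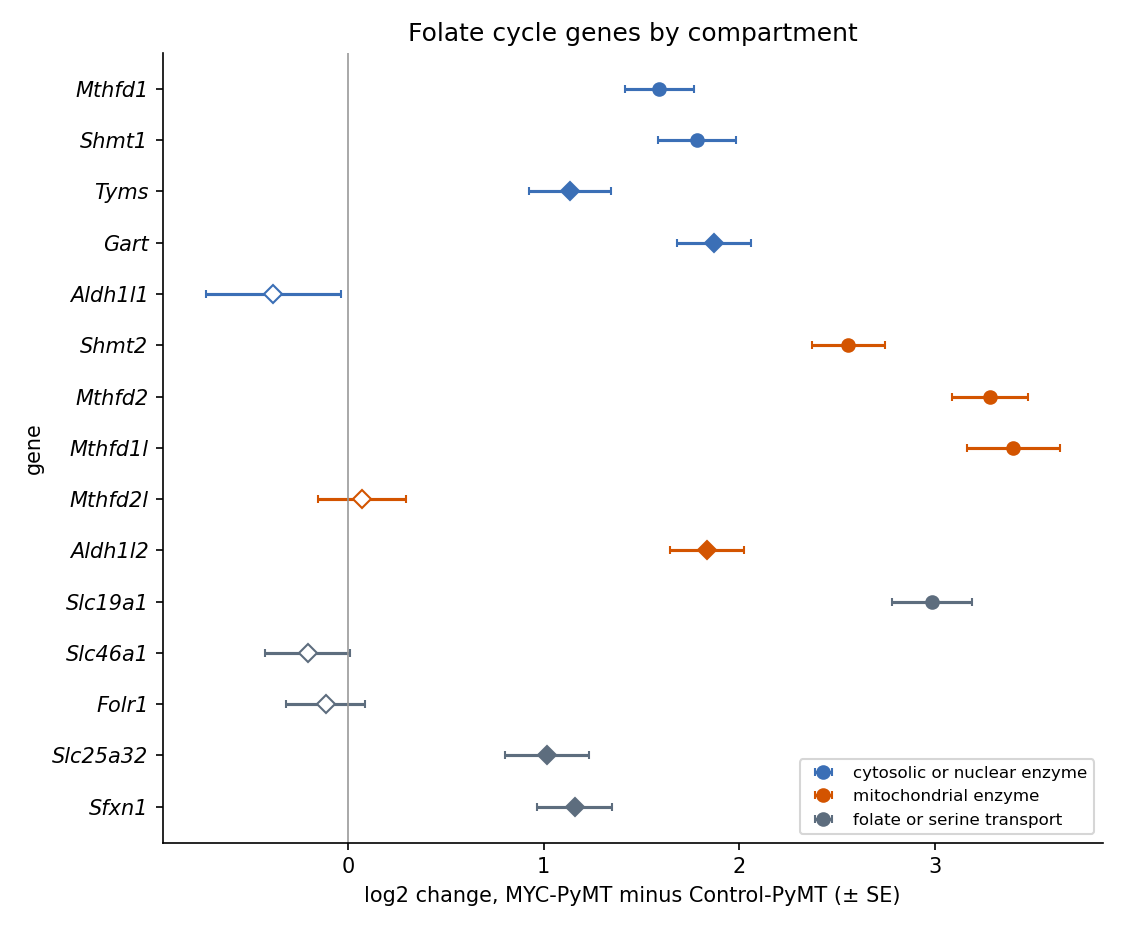
Log2 change of folate cycle and transport genes (horizontal axis, MYC-PyMT minus Control-PyMT, bars ± SE from limma), coloured by compartment; circles are among the 9 genes, diamonds are others, and open symbols did not pass an adjusted p of 0.05. Mthfd1l, Mthfd2 and Slc19a1 lie furthest to the right, and Mthfd2l, Aldh1l1, Slc46a1 and Folr1 lie near 0 with open symbols.

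Of the other routes for folate into cells, Slc46a1, the proton-coupled folate transporter, had 902 and 1206 scaled counts in the Control-PyMT pair and 960.1 and 852 in the MYC-PyMT pair. The folate receptor gene Folr1 had 2868 and 3905 in the Control-PyMT pair and 3167 and 3021 in the MYC-PyMT pair. For both the ranges overlapped and the test was not passed (log2 -0.21 and -0.11, limma adjusted p = 0.460 and 0.668), unlike Slc19a1. That difference between the carriers was not tested. Slc25a32, the folate carrier of the inner mitochondrial membrane, rose from 497 ± 72.8 to 1000.3 ± 14.3. Among 12 genes for folate and cobalamin uptake 4 rose (33.3%) and 2 fell (16.7%), which is near the shares of all genes tested (23.3% and 24.6%).

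Of 10 tested genes for serine and glycine transport 7 rose (70%) and none fell, beside 23.3% and 24.6% of all genes tested. Slc1a5, a transporter of neutral amino acids that include serine and glutamine, rose from 583 ± 93.8 to 6749 ± 332 scaled counts (log2 change 3.54 with SE 0.19, limma adjusted p = 3.62e-06), more than any of the 9 genes in log2 change. Slc1a4, a related serine transporter named here after its values were seen, had 1045 and 933 in the Control-PyMT pair and 758 and 891 in the MYC-PyMT pair (log2 -0.26, limma adjusted p = 0.312). Sfxn1, which brings serine into mitochondria, rose from 3271 ± 467 to 7272 ± 531, Slc38a1 from 2664 ± 41.6 to 4548 ± 479, and the glycine transporter gene Slc6a9 from 97.3 ± 31.8 to 388 ± 65.0. The Slc38a1 call ended without MYC-PyMT replicate 1 (adjusted p = 0.0910).

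Of 8 tested genes listed under serine and glycine breakdown 3 rose (37.5%) and 2 fell (25.0%), near the 23.3% and 24.6% of all genes tested. Not all of them consume these amino acids: Gcat, on the same list, makes glycine. Of the glycine cleavage system, Gcsh, its lipoyl carrier protein, rose from 1721 ± 361 to 5383 ± 324 and Dld, the lipoamide dehydrogenase shared with other complexes, from 4660 ± 865 to 10402 ± 680.3. Amt, its aminomethyltransferase, named here after its values were seen, had 1739 and 1358 scaled counts in the Control-PyMT pair and 2606 and 1949.5 in the MYC-PyMT pair, without overlap, and did not pass (log2 0.55, limma adjusted p = 0.0608). Gldc, the decarboxylase that defines the system, was low, with 67.3 and 53.5 scaled counts in the Control-PyMT pair and 33.2 and 16.5 in the MYC-PyMT pair (log2 -1.32, SE 0.44, limma adjusted p = 0.0308). Its fall did not pass without either Control-PyMT replicate, without MYC-PyMT replicate 2 or by DESeq2 (adjusted p = 0.106 to 0.217). Gcat, which makes glycine and acetyl-CoA in threonine breakdown, rose from 461 ± 5.76 to 2690.2 ± 54.4. Srr, serine racemase, fell from 1067 ± 125 to 482 ± 2.47.

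In the methionine cycle and transsulfuration, 10 of 16 tested genes rose (62.5%) and 1 fell (6.25%), beside 23.3% and 24.6% of all genes tested. Cth, the cystathionine gamma-lyase that releases cysteine, rose from 131 ± 15.8 to 2162 ± 390.0 scaled counts (log2 change 4.03 with SE 0.23, limma adjusted p = 4.25e-06). Cbs, the step before it, to which serine contributes its carbon skeleton, went from 57.9 ± 14.6 to 162 ± 38.3, which no longer passed when Control-PyMT replicate 2 was left out (adjusted p = 0.0779). Gnmt, which methylates glycine, rose from 60.8 ± 6.57 to 726 ± 23.2, Mat2a, which makes S-adenosylmethionine, from 8221 ± 1192 to 17056 ± 2250.0, Ahcy, which clears S-adenosylhomocysteine, from 1250.2 ± 152 to 3550 ± 565, and Adi1, of methionine salvage, from 2391 ± 82.7 to 6368 ± 995. Mtr, methionine synthase, the enzyme that passes the folate carbon to homocysteine, had 446 and 391 scaled counts in the Control-PyMT pair and 529 and 491 in the MYC-PyMT pair, a log2 change of 0.29 that did not pass (SE 0.22, limma adjusted p = 0.312).

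**Figure D4:**
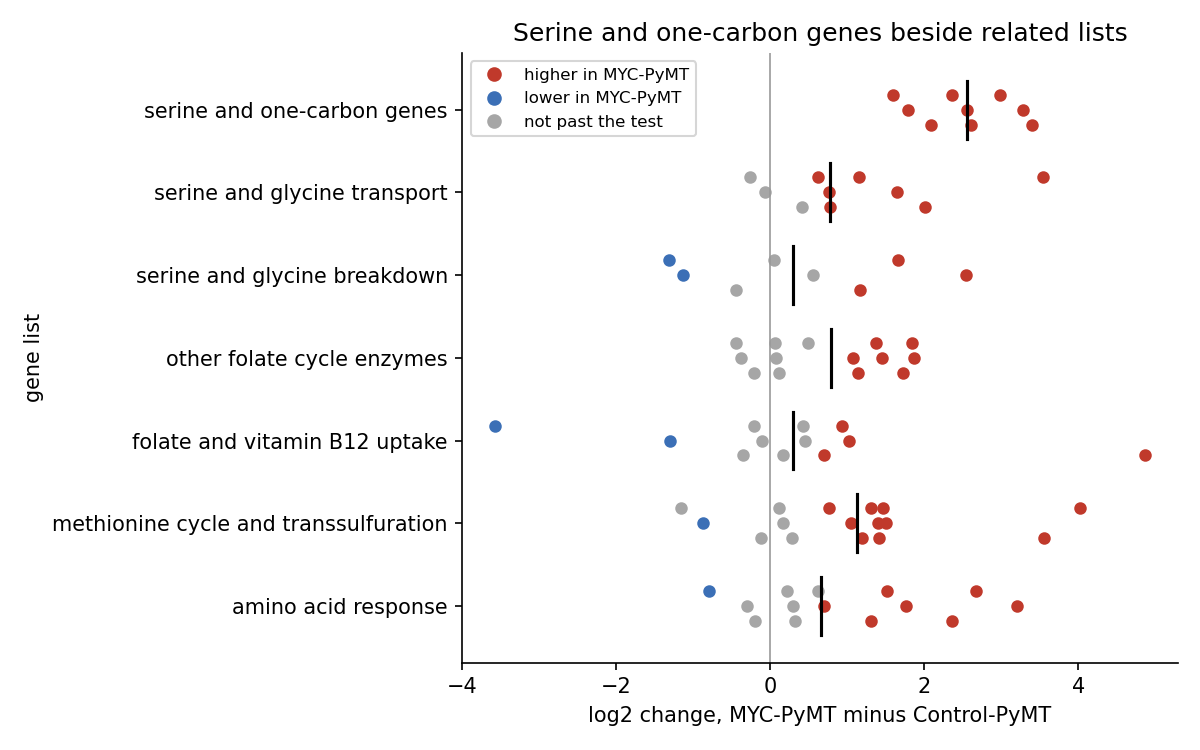
Log2 change (horizontal axis, MYC-PyMT minus Control-PyMT) of each tested gene in the 9-gene set and in 6 related lists; each point is a gene, red if higher, blue if lower and grey if not past the test, and black bars are list medians. The 9 genes run from 1.59 to 3.40, and the medians of the related lists lie between 0.30 and 1.12.

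Genes of serine synthesis and Mthfd2 are known targets of ATF4, the transcription factor of the amino acid response. Of 14 genes on that list 7 rose (50%) and 1 fell (7.14%), beside 23.3% and 24.6% of all genes tested. Their median log2 change was 0.66. Atf4 had 7555 and 6733 scaled counts in the Control-PyMT pair and 14475 and 21495 in the MYC-PyMT pair (log2 1.31, SE 0.23, limma adjusted p = 0.00120), with adjusted p = 0.0504 without Control-PyMT replicate 2. Asns, asparagine synthetase, rose from 1943 ± 172 to 10036 ± 1657, Trib3, a pseudokinase, from 543 ± 9.26 to 3546 ± 1106, Chac1, which degrades glutathione, from 79.8 ± 2.28 to 744 ± 50.7, and Ddit4, an inhibitor of mTORC1 signalling, from 3532 ± 554 to 12441 ± 5039. The Ddit4 call ended without Control-PyMT replicate 2 (adjusted p = 0.0560). Ddit3, Sesn2 and Nupr1 of the same list, named after their values were seen, did not pass.

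Profiles over the 4 libraries were compared as the Euclidean distance between log2 values centred on each gene's mean, among 83 genes, those of the set and of the related lists that were tested. Nearest to Mthfd2 were Chac1 (0.21) and Mthfd1l (0.25), and nearest to Mthfd1l was Mthfd2. Phgdh lay nearest to Gcat (0.26) and then to Psat1 (0.31), and Shmt2 also lay nearest to Gcat (0.18). The cytosolic Shmt1 was closest to Gart (0.12) and Aldh1l2 (0.13), and Mthfd1 to Adi1 (0.24) and Aldh1l2 (0.25). Psat1 lay nearest to Phgdh and Asns (0.43), Psph to Psat1 (0.43) and Ddit4 (0.47), and Slc19a1 to Chac1 (0.39) and Shmt2 (0.45). With 4 libraries in 2 groups these distances mostly reflect the size of the change.

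Markers of dividing cells moved with the 9 genes. All 10 of 10 rose, beside 23.3% of all genes tested (24.6% fell), with a median log2 change of 1.56. They summed to 26493 and 22275 scaled counts in the Control-PyMT pair and 65963 and 65624 in the MYC-PyMT pair. None of the 10 was at 0 in all libraries, and their part in the changes of the 9 genes was not tested. Of 10 tested leukocyte markers 2 rose (Cd68 and S100a9) and 4 fell (Ptprc, Cd3e, Cd8a and Itgam). The list summed to 6925 and 4559 in the Control-PyMT pair and 6237 and 7654 in the MYC-PyMT pair, which hides opposite changes. Mean scaled counts rose from 816 to 2124 for Cd68 and fell from 1272 to 597 for Ptprc and from 85.4 to 4.21 for Cd8a. Of 5 fibroblast markers 1 rose (Col1a1, mean 1897 to 3667) and 2 fell (Dcn, 4844 to 1047, and Pdgfra, 454 to 178). Their sums of 9350.1 and 14031 in the Control-PyMT pair and 9941 and 12869 in the MYC-PyMT pair overlapped. Of the 6 epithelial markers 1 rose (Krt14, 4673 and 2481 in the Control-PyMT pair against 4828 and 13476 in the MYC-PyMT pair). Another 1 fell (Cdh1, mean 18422 to 11973.5), and the median log2 change of the 6 was -0.24. Endothelial markers rose in 2 of 4 cases (sums of 1745 and 2224 against 2845 and 3259). Of 4 adipocyte markers 1 rose and 1 fell (sums of 609 and 1866 against 3269 and 2785). Fabp4, the one that rose, made up most of the MYC-PyMT sums, with 2939 and 2544. Lep fell, and Adipoq (113 and 505 against 293 and 220) and Plin1 did not pass. Called higher were 20% of leukocyte and fibroblast markers and 25% of adipocyte markers, near the 23.3% of all genes tested. Called lower were 40% of leukocyte and of fibroblast markers and 25% of adipocyte markers, beside 24.6% of all genes tested. Of the endothelial markers 50% were called higher and none lower. The part of these markers was not tested either.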

How the data were processed

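RNA of 4 bulk mammary tumour libraries was measured by strand-specific poly(A) RNA-seq. Per the submitters' processing notes, the authors aligned reads with HISAT2 to mm10 (GRCm38.p5) and used DESeq2. Not given in the sources used here are the counter, its strand setting and the annotation. The deposited values are scaled counts, a signal of read counts divided by 1 size factor per library and not by gene length. All values (100.0%) were whole multiples of 1 read within 0.001 reads, 1 read being worth 0.849 to 1.10 scaled counts, so reads were recovered for the alternatives. Of the gene IDs, 20463 of 20555 were found in GENCODE M21 (GRCm38), used for coordinates and lengths.

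The main test was limma 3.58.1 (eBayes with trend, two-sided) on log2(value + 1) for the 16725 genes that reached 10 in 2 or more libraries, which understates changes of low genes. Alternatives were pseudocounts, level filters, upper-quartile and TMM scaling, a fit without the variance trend, a replicate block, each library left out, removal of the length trend, edgeR 4.0.16 quasi-likelihood and DESeq2 1.42.0 on the recovered reads, and a threshold of 0.10. The procedure was tested on simulated data with the same spread for all genes and few genes changed, all upward. These data differ in that, so the simulation does not tell how often calls here are wrong. Members and lists were chosen with earlier results of these data known. Named were the 9 genes, 4 genes of smallest p per list and fixed counterparts, of which some are not reported here. Sds, Agxt, Ftcd, Dmgdh, Bhmt and Bhmt2 were not analysed here, and Slc38a5, Slc7a10 and Tdh were under the level filter. Of the other genes named, Ahcy (77.0%), Gcat (46.7%), Slc6a9 (41.2%), Srr (29.0%), Aldh1l2 (16.9%), Gart (14.2%), Mat2a (11.4%) and Tyms (11.1%) shared the given part of their 50-base stretches with other transcripts, so their values are uncertain.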

Additional observations from a re-analysis of the deposited data

How the results depend on the processing

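Each of the 9 serine and one-carbon genes kept its rise and its call under the 15 alternatives that refit the test (135 of 135 values, log2 changes of 1.48 to 3.70), among them edgeR and DESeq2, and at a threshold of 0.10 the count was also 9. None was lower in any. With a library left out, the group of 1 is assumed to vary like the other group, so those fits are a weak check. With the replicate block all 9 were also called. The labels do not say that replicate numbers pair libraries, and the deviations of same-numbered libraries correlated at -0.089 across genes. Upper-quartile scaling moved the median of all genes by -0.11 (log2), so changes there are lower by that much. The related genes called lower numbered 6, and 3 to 5 when a library was left out, with 3 without Control-PyMT replicate 1. Over all genes tested, 4118 were lower, and 2703 and 2573 without Control-PyMT replicate 1 or 2. Leaving out a library gave log2 differences of 0.51 to 1.04 for Shmt2 over Shmt1, 1.55 to 2.07 for Mthfd1l over Mthfd1, 1.59 to 1.79 for Mthfd2 over Mthfd1 and 3.15 to 3.27 for Mthfd2 over Mthfd2l. Genes that did not pass changed sign in places. Leaving out a library moved the log2 change from -0.12 to 0.262 for Mthfd2l, from -0.85 to 0.0866 for Aldh1l1, from -0.415 to 0.00286 for Slc46a1 and from -0.336 to 0.109 for Folr1. It was -0.0442 for Mthfd2l under upper-quartile scaling. Tcn2 lost its call without either Control-PyMT replicate (adjusted p = 0.0704 and 0.0987), and Mtr gained one with the length trend removed (log2 0.69, adjusted p = 0.0297). Across genes the log2 change correlated with transcript length (Spearman -0.216), and the longest transcript of Mtr has 8294 bases. The cause of these shifts was not tested. With the shortest coding transcript, which can be a fragment, MYC-PyMT levels per kilobase were 15134 for Phgdh, 38733 for Psat1, 4537 for Psph, 4357 for Shmt1, 7586 for Mthfd1, 10229 for Mthfd2, 779 for Mthfd1l and 10159 for Slc19a1, so the order between genes depends on the transcript.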

Other observations

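Genes for cobalamin, the cofactor of methionine synthase, did not move one way. Amn and Cubn encode partner proteins of 1 receptor for cobalamin bound to intrinsic factor. Amn rose from 4.68 and 3.40 scaled counts in Control-PyMT to 107 and 197 in MYC-PyMT, while Cubn fell from 57.0 and 79.0 to 5.03 and 4.40, a log2 change of -3.58 (SE 0.44, limma adjusted p = 0.000189). Tcn2, the carrier of cobalamin in blood, fell from 9724 and 11184 to 5714 and 3148. Ndufa4l2, which overlaps Shmt2 on the opposite strand over 32 bases, had 50.5 and 62.0 scaled counts in the Control-PyMT pair and 225 and 909.9 in the MYC-PyMT pair. The MYC-PyMT libraries were far apart for this gene, whereas Shmt2 differed by a factor of 1.11 between those libraries.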
